A study of Mus musculus with 24 samples.

Results

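The unfolded protein response of the endoplasmic reticulum (ER) was followed through 10 genes: Hspa5, Hsp90b1, Xbp1, Atf6, Dnajb9, Calr, Pdia4, Sdf2l1, Creld2 and Herpud1. They were chosen by name among the 54532 genes of the deposited count tables. All 10 were found, each on 1 row, and all 10 passed the filter on low counts in every comparison. The samples were 24 bulk messenger RNA libraries from C57BL/6J mice, in 6 groups of 4: Polr3a mutant and wild type cerebrum at postnatal day 42 (P42), Polr3a mutant and wild type cerebellum at P42, and Polr3a mutant and wild type cerebrum at P75. Every mouse, wild types included, was treated with tamoxifen, which induced recombination at P28, so the libraries stand 14 days (P42) and 47 days (P75) after induction. The product of Polr3a is the catalytic core subunit of RNA polymerase III, the enzyme that makes transfer RNAs and other short RNAs. The labels name neither the allele nor the Cre line, nor whether wild types carried Cre, and they do not say that each library came from a separate mouse. Sexes were 2 males and 2 females in both cerebrum groups at P42 and in mutant cerebellum, 3 males and 1 female in wild type cerebellum, and males only at P75.

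Secreted and membrane proteins fold in the ER. When unfolded proteins accumulate there, the sensors ATF6, IRE1 and PERK start separate branches of the response. ATF6 is cut to release a transcription factor and IRE1 splices Xbp1 messenger RNA, and both raise the transcription of ER chaperones and of the machinery that returns misfolded proteins to the cytosol for degradation. PERK phosphorylates eIF2 alpha, which slows translation and favours synthesis of ATF4. Other eIF2 alpha kinases converge on ATF4 without passing through the ER, and this shared outcome is called the integrated stress response. The 10 genes are read here by role: sensors and transcription factors (Atf6, Xbp1), chaperones and their partners (Hspa5, Hsp90b1, Calr, Pdia4, Dnajb9, Sdf2l1, Creld2), and a component of ER-associated degradation (Herpud1). The question was whether this ER set moved with genotype.

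Of the 10 genes, 3 passed the test in cerebrum at P75, where 14.3% of all genes tested passed, and not in 1 direction: Herpud1 rose, while Hspa5 and Calr fell. At P42 0 of the 10 passed by edgeR in cerebrum or cerebellum, where 0.0165% and 0.0114% of all genes passed. The RefSeq promoters of these 3 genes (GRCm38.p6, the build called mm10) are shown because each holds an ER stress response element, the sequence bound by ATF6 together with NF-Y. The 220 bases before the transcription start annotated in RefSeq are given 5′ to 3′ in the direction of transcription. Capitals mark the element. It is CCAAT and CCACG with any 9 bases between them (ERSE, on either strand) in Hspa5 and Calr, and ATTGG and CCACG with 1 base between them (ERSE-II, the form known from human HERPUD1) in Herpud1.
Hspa5, chr2:34771870-34772089, plus strand: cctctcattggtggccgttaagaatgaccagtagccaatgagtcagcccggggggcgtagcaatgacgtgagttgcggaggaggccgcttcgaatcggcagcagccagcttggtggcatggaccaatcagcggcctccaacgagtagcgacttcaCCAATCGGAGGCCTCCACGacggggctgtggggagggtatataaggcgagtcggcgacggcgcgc
Calr, chr8:84846932-84847151, minus strand: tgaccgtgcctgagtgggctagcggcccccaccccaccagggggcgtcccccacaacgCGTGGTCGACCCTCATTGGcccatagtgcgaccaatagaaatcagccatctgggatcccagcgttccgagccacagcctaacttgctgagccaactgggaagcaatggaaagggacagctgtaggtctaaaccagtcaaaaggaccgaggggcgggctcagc
Herpud1, chr8:94386209-94386428, plus strand: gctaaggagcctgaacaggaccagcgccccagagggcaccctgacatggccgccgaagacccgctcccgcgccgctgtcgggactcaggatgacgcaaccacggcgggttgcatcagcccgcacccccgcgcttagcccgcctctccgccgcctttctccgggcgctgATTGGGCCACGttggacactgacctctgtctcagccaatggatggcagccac
The element lay at bases -65 to -47 from the RefSeq start of Hspa5, at -162 to -144 on the opposite strand of Calr and at -52 to -42 of Herpud1. The gene spans of the count tables can start elsewhere. That of Hspa5 begins at base 34771970, so its element lies inside that span. Of the 10 genes, 9 had a promoter in the RefSeq table (Atf6 did not). ERSE matched in 4 of these 9 (Hspa5, Hsp90b1, Calr and Creld2, with a pair of copies in Hsp90b1), against 0.119% of all 32851 promoters of the same length. ERSE-II matched in 1 of 9 (Herpud1), against 0.0365%. The 10 genes were chosen by name as genes of the unfolded protein response, and ERSE-II is known from human HERPUD1. These shares are therefore not read as an enrichment. The XBP1-type element TGACGTGG and the ATF4-type element TGATGNAAT matched in 0 of 9, against 0.676% and 0.965%. Apart from N, which stands for any base, only these letters were searched. Stretches that differ only in the last base of the element occur in the printed promoters. They are tgacgtga in Hspa5 (XBP1-type) and gttgcatca in Herpud1 (ATF4-type, on the opposite strand). The 0 of 9 therefore does not exclude variant forms, whose share among all promoters was not counted. Both strands were searched over 250 bases before to 50 after the start. A match describes the letters in this window and is not evidence of binding.

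Total counts per library, in units of 1000000, ran from 13.8 to 23.2. Levels are given as counts per 1000000 (CPM), scaled by edgeR's TMM factors within each comparison, with the standard deviation (SD) over 4 libraries. Differences are log2 fold changes of mutant over wild type with their standard error (SE), from edgeR's quasi-likelihood F test, and a gene was called where its p, adjusted by Benjamini-Hochberg over all genes tested, was under 0.05. Polr3a itself did not separate the genotypes: at P75 its level was 31.6 ± 1.32 CPM in mutants against 33.8 ± 3.58 CPM in wild types (SD, n = 4 each), and its adjusted p was 0.562, 0.984 and 0.542 in cerebrum P42, cerebellum P42 and cerebrum P75. As the labels do not name the allele, total Polr3a counts do not check the genotypes. Tissue markers followed the labels. In wild types, 7 of 8 cortical excitatory neuron markers were called higher in cerebrum than in cerebellum (median log2 fold change 4.12) and 7 of 7 granule and Purkinje cell markers lower (median -4.78).

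Ordered by level per kilobase of exon in cerebrum at P75, the chaperones led. Calr had 95.3 CPM per kb in mutants against 113 CPM per kb in wild types, and it ranked first in 6 of 6 groups. Hspa5 (66.5 CPM per kb in mutants, 79.0 CPM per kb in wild types) and Hsp90b1 (57.3 CPM per kb in mutants, 63.9 CPM per kb in wild types) took ranks 2 and 3 in every group, in the reverse order in cerebrum at P42. There Hsp90b1 (49.0 CPM per kb in mutants, 58.1 CPM per kb in wild types) and Hspa5 (47.1 CPM per kb in mutants, 53.2 CPM per kb in wild types) lay within 1 SD of each other. Herpud1 and Xbp1 followed. In mutant cerebrum at P75 Herpud1 (43.1 CPM per kb) stood above Xbp1 (29.2 CPM per kb), whereas in wild types Xbp1 (33.3 CPM per kb) stood above Herpud1 (29.0 CPM per kb). Herpud1 was ranked above Xbp1 in 5 of the 6 groups. Dnajb9 and Pdia4 held ranks 6 and 7, and Creld2, Sdf2l1 and Atf6 the last places, all between 8.94 and 12 CPM per kb at P75. These length-scaled levels compare genes, while all values below compare libraries for 1 gene and are in CPM.

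**Figure D1:**
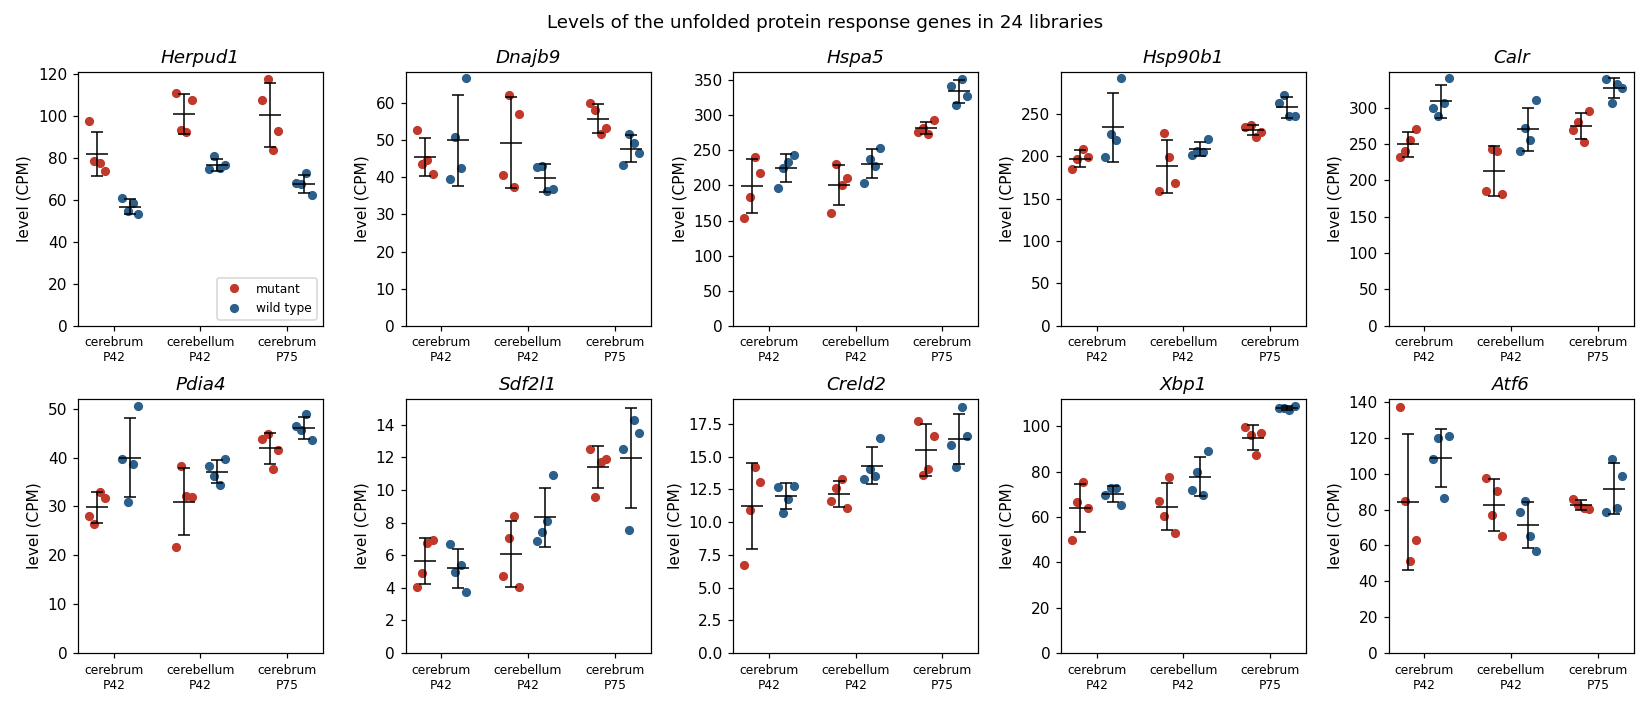
Level of each of the 10 genes in CPM (vertical axes, starting at 0, a scale per gene) in the 24 libraries, mutant left of wild type in each tissue and age; points are libraries, and the black dash and bars are the mean and SD over 4 libraries. Herpud1 mutant points lie above all wild type points in all 3 comparisons, and for Hspa5 and Calr at P75 they lie below.

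Herpud1 encodes an ER membrane protein that joins the degradation complex around the ubiquitin ligase HRD1, and it is a target of several branches of the response in cultured cells (chromosome 8, 94386438 to 94395377, plus strand, mm10; ENSMUSG00000031770). In cerebrum at P75 it had 108, 118, 84 and 92.8 CPM in the 4 mutants, against 68.2, 67.5, 72.9 and 62.3 CPM in the 4 wild types. Every mutant library lay above every wild type library. The means were 101 ± 15.1 CPM in mutants against 67.7 ± 4.33 CPM in wild types (SD, n = 4 each), a log2 fold change of 0.57 ± 0.10 (SE) with an adjusted p of 0.0017 by edgeR. This call held with every one of the 8 libraries left out in turn and under all 15 alternatives run, with adjusted p up to 0.0099.

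In cerebrum at P42 Herpud1 had 97.6, 78.6, 77.9 and 73.8 CPM in mutants, against 60.9, 54.9, 58.4 and 53.2 CPM in wild types. The groups were again apart, with means of 82.0 ± 10.6 CPM in mutants against 56.9 ± 3.46 CPM in wild types. The log2 fold change of 0.53 ± 0.11 was close to that at P75, but its adjusted p by edgeR was 0.230. DESeq2 on the same counts called it (0.52, adjusted p = 0.00634), along with 1.28% of all genes. So did edgeR without the filter on low counts (0.54, adjusted p = 0.0210), along with 3.83% of the 34243 genes then tested. The authors' deposited table lists it with an adjusted p of 0.0145 and a log2 fold change of 0.52. In that comparison edgeR called 3 of 18205 genes (0.0165%), and Herpud1 stood at rank 60 by unadjusted p.

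In cerebellum at P42 Herpud1 had 111, 93.4, 92.5 and 108 CPM in mutants, against 74.9, 81.1, 75.2 and 76.7 CPM in wild types. These groups were apart as well, with means of 101 ± 9.88 CPM in mutants against 77.0 ± 2.87 CPM in wild types. The log2 fold change of 0.40 ± 0.11 had an adjusted p of 0.866 by edgeR, where 2 of 17616 genes were called (0.0114%), and of 0.159 in the authors' deposited table. Herpud1 was thus the only gene of the 10 above its wild types in every library of all 3 comparisons, and the only one of the 10 with a positive log2 fold change in all 3. Of the 16288 genes tested in all 3 comparisons, 16.2% had a positive value in each. Groups apart with mutants above were found for 3.53% of all genes in cerebrum P42, 1.85% in cerebellum P42 and 10.1% in cerebrum P75. The share of all genes apart in all 3 at once is not given here. Neither interaction test separated its differences: cerebrum minus cerebellum was 0.09 ± 0.15 (adjusted p = 0.885) and P75 minus P42 was 0.05 ± 0.15 (adjusted p = 0.916), both by edgeR. An antisense gene, Gm15890, overlaps Herpud1 over 535 bases. It held 0 to 7 counts per library, and whether the counting used strand is not stated.

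Hspa5 encodes BiP, the abundant ER chaperone that also holds the sensors inactive in unstressed cells (chromosome 2, 34771970 to 34777547, plus strand; ENSMUSG00000026864). In cerebrum at P75 it had 276, 282, 274 and 293 CPM in mutants, against 342, 314, 352 and 328 CPM in wild types. All mutants lay below all wild types, with means of 281 ± 8.69 CPM in mutants against 334 ± 16.7 CPM in wild types (SD, n = 4 each). Hspa5 fell, with a log2 fold change of -0.25 ± 0.06 and an adjusted p of 0.0203 by edgeR. The call was lost when mutant library 1, 2 or 3 or wild type library 1 or 3 was left out (adjusted p 0.0513 to 0.0660, log2 fold change -0.25 to -0.22).

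At P42 Hspa5 was not called in either tissue. In cerebrum it had 154, 184, 241 and 218 CPM in mutants, against 197, 225, 234 and 244 CPM in wild types, and in cerebellum 161, 230, 201 and 210 CPM in mutants, against 204, 238, 228 and 254 CPM in wild types. The groups overlapped in both, with mutant library 1 lowest each time. The log2 fold changes were -0.18 ± 0.16 (adjusted p = 0.616) in cerebrum and -0.23 ± 0.14 (adjusted p = 0.967) in cerebellum by edgeR.

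Calr encodes calreticulin, a lectin chaperone for glycoproteins that also stores calcium (chromosome 8, 84841850 to 84846934, minus strand; ENSMUSG00000003814). In cerebrum at P75 it had 269, 280, 253 and 295 CPM in mutants, against 340, 307, 333 and 327 CPM in wild types. The groups did not overlap, with means of 274 ± 17.8 CPM in mutants against 327 ± 14.1 CPM in wild types. Calr fell, with a log2 fold change of -0.25 ± 0.07 and an adjusted p of 0.0263 by edgeR. The call was lost when mutant library 1, 2 or 3 or wild type library 1, 3 or 4 was left out (adjusted p 0.0524 to 0.0769). In cerebrum at P42 the 4 mutants also lay below the wild types, at 232, 240, 256 and 270 CPM in mutants against 300, 288, 306 and 341 CPM in wild types, with -0.31 ± 0.11 (adjusted p = 0.371 by edgeR). In cerebellum the values were 185, 243, 241 and 181 CPM in mutants against 241, 272, 256 and 311 CPM in wild types. A mutant library at 243 CPM lay above a wild type library at 241 CPM, so these groups overlapped, with -0.37 ± 0.15 (adjusted p = 0.967 by edgeR).

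Hsp90b1 encodes GRP94, the HSP90 of the ER. At P75 it had 235, 237, 223 and 229 CPM in mutants, all below the 263, 272, 248 and 248 CPM in wild types. Its log2 fold change of -0.16 ± 0.06 missed the threshold (adjusted p = 0.117 by edgeR). At P42 the groups overlapped, with means of 197 ± 9.84 CPM in mutants against 234 ± 41.1 CPM in wild types in cerebrum, and 189 ± 31.3 CPM in mutants against 209 ± 8.75 CPM in wild types in cerebellum. Hsp90b1 overlaps the opposite-strand gene 1810014B01Rik over 4598 bases, but that gene had 1.98 to 4.73 CPM.

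The remaining partners of the chaperones did not pass. Pdia4, a disulfide isomerase gene, had 29.8 ± 3.15 CPM in mutants against 39.9 ± 8.11 CPM in wild types in cerebrum at P42 (log2 fold change -0.42 ± 0.17, adjusted p = 0.380 by edgeR), the most negative value of the 10 there. It had 31.0 ± 6.92 CPM in mutants against 37.1 ± 2.32 CPM in wild types in cerebellum, and 41.9 ± 3.17 CPM in mutants against 46.1 ± 2.23 CPM in wild types at P75. Creld2, an ER protein gene known for its induction by ER stress, differed by -0.10, -0.26 and -0.08 on the log2 scale in cerebrum P42, cerebellum P42 and cerebrum P75. Sdf2l1, whose product works with BiP and a J-domain partner, was the lowest in CPM of the 10, at 5.65 ± 1.41 CPM in mutants against 5.19 ± 1.21 CPM in wild types in cerebrum at P42. Its log2 fold changes of 0.14 ± 0.26, -0.51 ± 0.27 and -0.07 ± 0.18 carry the largest standard errors of the 10 in cerebellum P42 and in cerebrum P75.

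Dnajb9 encodes ERdj4, a J-domain partner of BiP that serves degradation and restrains IRE1. It was the only gene other than Herpud1 with all mutants above all wild types at P75, at 60.1, 58.1, 51.8 and 53.2 CPM in mutants against 43.4, 51.8, 49.2 and 46.5 CPM in wild types. The lowest mutant and the highest wild type both round to 51.8 CPM, so the gap between the groups is small. The log2 fold change was 0.22 ± 0.08 (adjusted p = 0.0817 by edgeR), and it passed without wild type library 2 (0.26, adjusted p = 0.0405). At P42 its value was -0.12 ± 0.17 (adjusted p = 0.765) in cerebrum and 0.35 ± 0.18 (adjusted p = 0.967) in cerebellum, neither called by edgeR. The difference between P75 and P42, 0.35 ± 0.19, was the largest of the 10 but was not called (adjusted p = 0.422 by edgeR). The P75 libraries were all male and those at P42 of both sexes, and with males only this difference was -0.02 ± 0.15 (adjusted p = 0.984).

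Xbp1, the transcription factor activated by IRE1, had 99.6, 96.1, 87.2 and 97.1 CPM in mutants at P75, below the 108, 108, 107 and 109 CPM of wild types. Its wild types spread by only 0.927 CPM (SD), against 5.37 CPM in mutants. The log2 fold change was -0.19 ± 0.07 (adjusted p = 0.0766 by edgeR). DESeq2 (adjusted p = 0.0389) and the authors' deposited table (adjusted p = 0.0380) placed it under 0.05. At P42 its groups overlapped in both tissues (-0.14 ± 0.14 in cerebrum, -0.30 ± 0.14 in cerebellum). Counts per gene do not separate spliced from unspliced Xbp1, so the activity of IRE1 was not measured. Atf6, the sensor itself, had 137, 84.6, 51.4 and 63 CPM in mutants in cerebrum at P42, against 108, 120, 86.4 and 121 CPM in wild types, a spread of 51.4 to 137 CPM within the mutants. It was not called in any genotype comparison. Without mutant library 1 of cerebrum P42, its difference between P75 and P42 became 0.64 (adjusted p = 0.0403 by edgeR), against 0.23 ± 0.31 (adjusted p = 0.781) with all libraries and -0.09 ± 0.37 (adjusted p = 0.961) with males only.

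**Figure D2:**
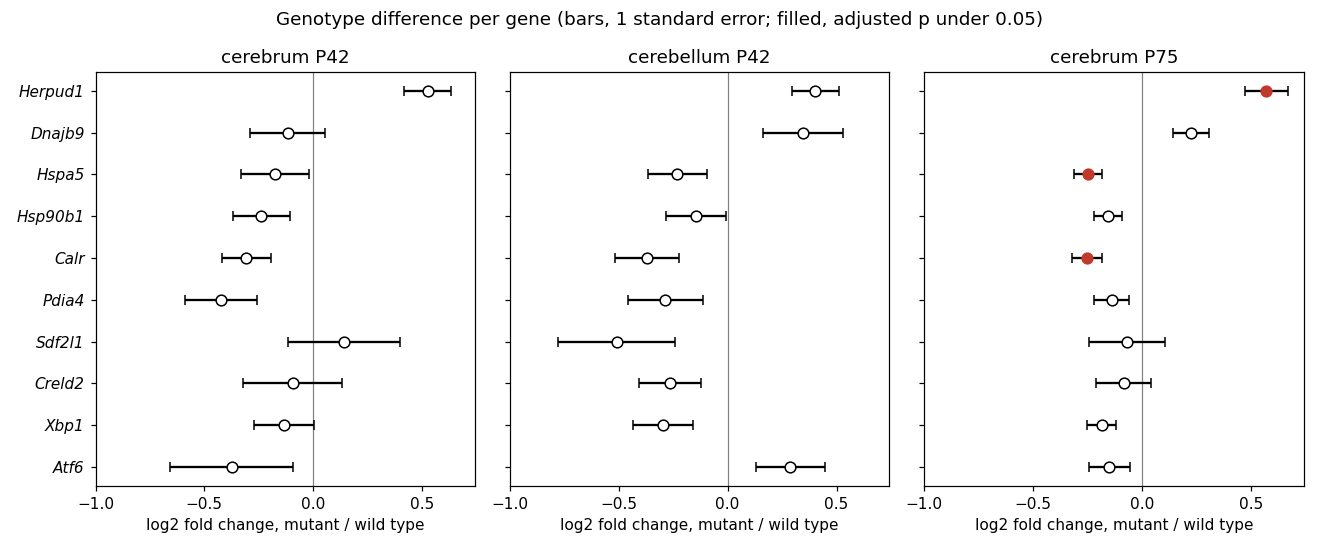
Log2 fold change of mutant over wild type (horizontal axes) for the 10 genes (rows) in the 3 comparisons, with bars of 1 SE; filled points have an adjusted p under 0.05 by edgeR. Herpud1 lies to the right of 0 in all 3 panels, at 0.53, 0.40 and 0.57, and the filled points at P75 are Herpud1, Hspa5 and Calr.

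Counted together, 1 of the 10 genes was called higher and 2 lower in cerebrum at P75, where 14.3% of 17523 genes were called (7.66% higher, 6.62% lower). At P42 0 of 10 were called in either tissue by edgeR. An unadjusted p under 0.05 was found for 3 of 10 in cerebrum P42, 2 of 10 in cerebellum P42 and 6 of 10 in cerebrum P75, against 12.6%, 4.65% and 28.8% of all genes. DESeq2 called 1 of 10 in cerebrum P42 (Herpud1), 0 of 10 in cerebellum P42 and 4 of 10 in cerebrum P75 (Xbp1 in addition), against 1.28%, 0.233% and 17.6% of all genes. The median log2 fold change of the 10 was -0.16 in cerebrum P42, -0.25 in cerebellum P42 and -0.14 in cerebrum P75, against 0.01, 0.01 and 0.00 over all genes tested. Their summed level in cerebrum at P75 was 1118 to 1222 CPM in mutants against 1293 to 1325 CPM in wild types, a sum that the abundant Calr, Hspa5 and Hsp90b1 dominate. Hspa5, Hsp90b1, Xbp1, Calr, Pdia4 and Creld2, 6 of the 10, had negative values in all 3 comparisons, as did 13% of all genes. At P75, the groups did not overlap for 2 genes above the wild types and 4 below (Hspa5, Hsp90b1, Xbp1 and Calr), against 10.1% and 9.87% of all genes. In cerebrum P42 they did not overlap for 1 above and 1 below, against 3.53% and 2.88% of all genes, and in cerebellum P42 for 1 above and 0 below, against 1.85% and 1.58%. Scaling by library totals alone moved the median of all genes at P75 to 0.11. It left 6 of 10 genes lower, and called 2 higher (Herpud1 and Dnajb9) and 0 lower, with Hspa5 at -0.15 (adjusted p = 0.139) and Calr at -0.15 (adjusted p = 0.155).

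No difference of the genotype effect between tissues or ages was called for any of the 10 genes by edgeR with all libraries. Between cerebrum and cerebellum at P42, 0 of 19614 genes were called in all (6.38% had an unadjusted p under 0.05), and the 10 ranged from -0.65 ± 0.34 (Atf6, adjusted p = 0.722) to 0.58 (Sdf2l1). Between P75 and P42 in cerebrum 1.36% of 19273 genes were called. Hspa5 differed by -0.07 ± 0.17 (adjusted p = 0.884) and Calr by 0.06 ± 0.12 (adjusted p = 0.869), so their calls at P75 are not shown to be particular to that age.

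Wild type tissues differed for 2 of the 10 genes, where 30.5% of 17964 genes were called (16.4% higher in cerebrum, 14.1% lower). Atf6 was higher in cerebrum, at 111 ± 16.3 CPM, than in cerebellum, at 68.4 ± 12.03 CPM (SD, n = 4 each), with a log2 fold change of 0.69 ± 0.17 (adjusted p = 0.0117 by edgeR). That call was lost without cerebellum wild type library 4 (0.44, adjusted p = 0.0639). Herpud1 was lower in cerebrum, at 57.9 ± 3.48 CPM, than in cerebellum, at 74.0 ± 2.90 CPM (-0.34 ± 0.10, adjusted p = 0.0333). It lost its call without any of 7 of the 8 libraries, all but cerebrum wild type library 4 (adjusted p 0.0549 to 0.110). Hspa5 differed by 0.01 ± 0.12 between the tissues (adjusted p = 0.971).

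The wider ER machinery was read from lists of other genes. At P75, 14.3% of all genes tested were called by edgeR (7.66% higher, 6.62% lower), and 28.8% had an unadjusted p under 0.05. Of 20 further ER chaperones and foldases, such as Hyou1, Pdia3 and P4hb, 0 were called at P75 by edgeR. Among them 3 had an unadjusted p under 0.05, and the median log2 fold change was -0.03. The smallest p was that of Pdia3, a glycoprotein disulfide isomerase gene, at 176 ± 11.5 CPM in mutants against 202 ± 10.04 CPM in wild types (-0.20 ± 0.07, adjusted p = 0.0725). Of 16 genes of ER translocation and export, 0 were called (3 at an unadjusted p under 0.05, median 0.04).

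Of 17 other genes of ER-associated degradation, 1 rose and 0 fell at P75, against 7.66% and 6.62% of all genes. Their median was 0.04, and the 1 call is not above the share over all genes. The riser was Edem2, which trims mannose from misfolded glycoproteins, at 26.2 ± 2.22 CPM in mutants against 20.6 ± 1.91 CPM in wild types (0.34 ± 0.10, adjusted p = 0.0379 by edgeR). Herpud2, the paralog of Herpud1, had 0.04 ± 0.10 (adjusted p = 0.828), and Syvn1, which encodes the HRD1 ligase, 0.04 ± 0.07 (adjusted p = 0.725). Sel1l, the partner of HRD1, had -0.11 ± 0.07 (adjusted p = 0.312).

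Of 8 sensors and ATF6-type factors, 2 rose and 0 fell at P75, with a median of 0.12, against 7.66% and 6.62% of all genes called. Creb3l1, an ER-bound factor processed like ATF6, had 8.12 ± 1.39 CPM in mutants against 4.74 ± 0.770 CPM in wild types (0.77 ± 0.18, adjusted p = 0.0106 by edgeR). Eif2ak3, which encodes PERK, had 38.3 ± 2.46 CPM in mutants against 29.4 ± 2.68 CPM in wild types (0.38 ± 0.09, adjusted p = 0.0113). Ern1, which encodes IRE1, was not called.

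The PERK-ATF4 arm was read from a list of 11 genes outside the 10. Herpud1, a target of several branches in cultured cells, is not set apart from this arm by that choice. All 11 of the 11 genes of this list rose in cerebrum at P75, with a median of 1.15, against 7.66% of all genes called higher. The list, like all others here, was chosen with earlier results of these data known, so this count is a description and not independent support. Ddit3, which encodes the stress factor CHOP, had 73.3 ± 9.65 CPM in mutants against 21.04 ± 3.41 CPM in wild types (1.80 ± 0.12, adjusted p = 1.1e-06 by edgeR). Atf4 itself had 0.55 ± 0.08 (adjusted p = 0.000296). At P42 0 of 11 were called in either tissue by edgeR, but all 11 had positive values in both, with medians of 0.81 in cerebrum and 0.82 in cerebellum. An unadjusted p under 0.05 was found for 7 in cerebrum and 8 in cerebellum, against 12.6% and 4.65% of all genes in either direction. The targets of this arm are shared with the other eIF2 alpha kinases, which these counts do not tell apart.

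**Figure D3:**
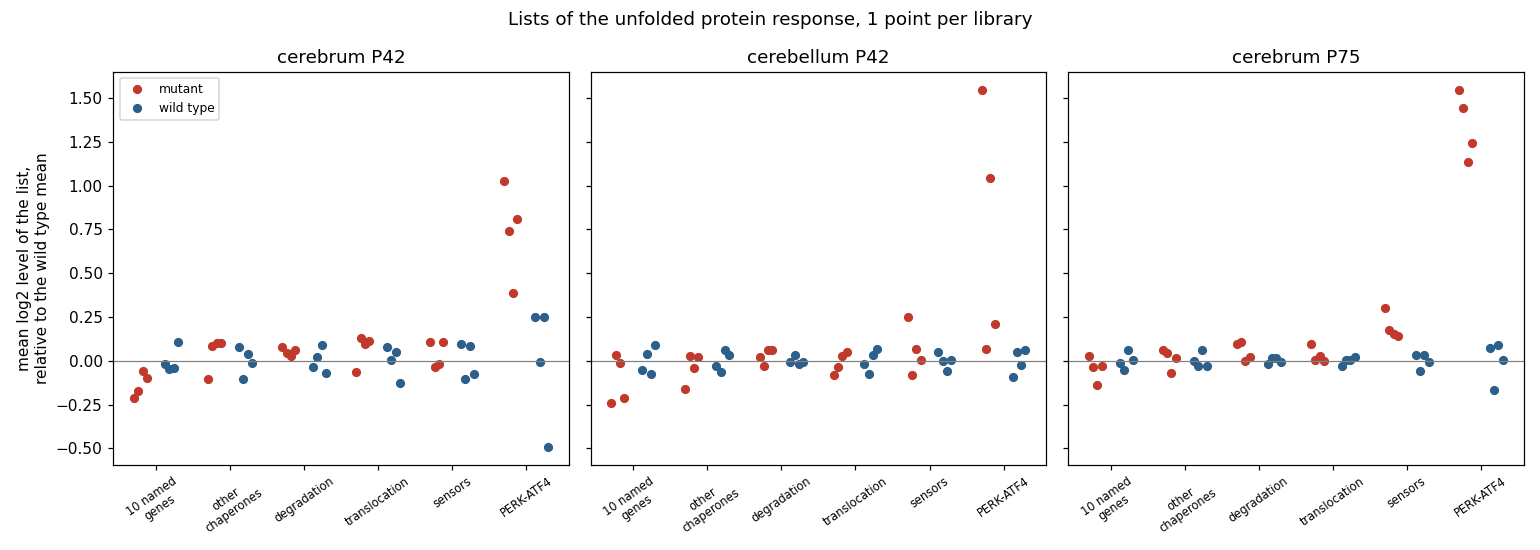
Mean log2 level of each list in each library relative to the wild type mean of its comparison (vertical axis), mutant left of wild type; each point is 1 library. The PERK-ATF4 list of the mutants reaches 1.13 to 1.55 at P75 while the 10 named genes of the same libraries span -0.14 to 0.03 and the other chaperones -0.07 to 0.06.

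Per library, the mean level of the PERK-ATF4 list relative to wild types was 1.55, 1.44, 1.13 and 1.24 (log2) in the 4 mutants at P75. In cerebrum at P42 it was 1.02, 0.74, 0.39 and 0.81 in mutants, and in cerebellum 1.55, 0.07, 1.04 and 0.21. Wild type cerebella spanned -0.09 to 0.06, so mutant cerebellum 2 lay just above their range and mutant cerebellum 4 further above it. Herpud1 in mutant cerebella 2 and 4 was 93.4 and 108 CPM, both above the highest wild type at 81.1 CPM. In mutant cerebella 1 and 3 it was 111 and 92.5 CPM. In mutant cerebrum, in the same library order, Herpud1 was 97.6, 78.6, 77.9 and 73.8 CPM at P42. At P75 it was 108, 118, 84 and 92.8 CPM. Whether Herpud1 varied with the PERK-ATF4 list was not tested.

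**Figure D4:**
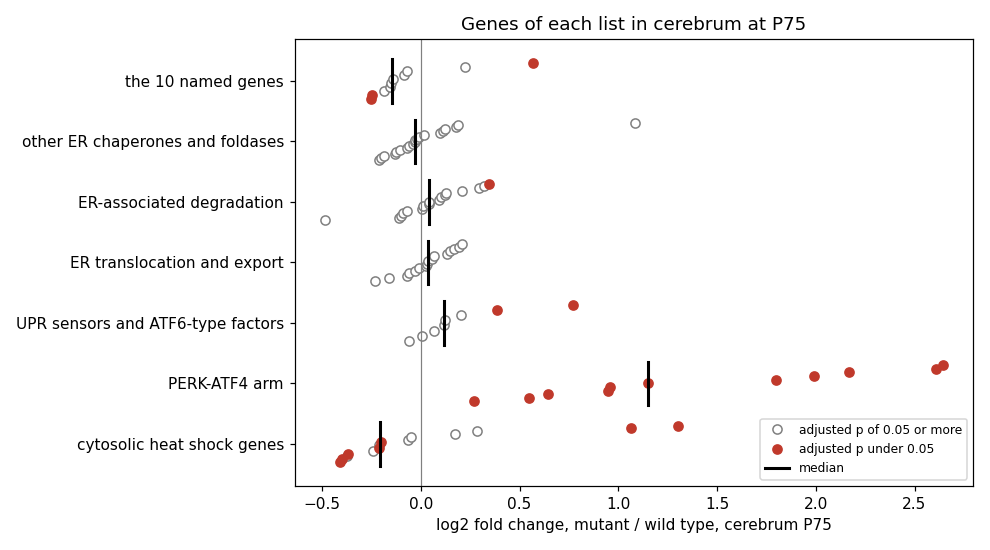
Log2 fold change of mutant over wild type in cerebrum at P75 (horizontal axis) for every tested gene of 7 lists (rows); filled points have an adjusted p under 0.05 by edgeR and the vertical dash is the list's median. All 11 PERK-ATF4 genes are filled and right of 0, with a median of 1.15, while the medians of the 10 named genes and of the other chaperones are -0.14 and -0.03.

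Cytosolic heat shock genes give the other folding compartment for comparison. Of 14, 2 rose and 5 fell at P75, with a median of -0.21, against 7.66% and 6.62% of all genes called. The 2 that rose, Hspa1a (1.30 ± 0.23, adjusted p = 0.00178 by edgeR) and Hspa1b (1.07 ± 0.20, adjusted p = 0.00274), encode near-identical inducible HSP70 proteins, so reads may be split between them. Those that fell were Hsph1 (-0.37), Hspa4l (-0.40), Cryab (-0.41), Hsp90ab1 (-0.21) and Hspd1 (-0.20), the last of which encodes a mitochondrial chaperone.

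Cell type markers moved with genotype beside these differences. In bulk tissue, fewer cells of a type and less RNA per cell cannot be told apart. At P75 7.66% of all genes tested were called higher and 6.62% lower. There 8 of 9 myeloid markers were called higher, at a sum of 207 to 447 CPM in mutants against 164 to 169 CPM in wild types. All 8 of 8 interferon-stimulated genes were called higher (median 4.34), and 7 of 8 cortical excitatory neuron markers were called lower (2064 to 2926 CPM in mutants, 3438 to 3942 CPM in wild types). Endothelial markers had higher values for 7 of 7 genes, 4 of them called, at 283 to 309 CPM in mutants and 223 to 229 CPM in wild types. Markers of B and plasma cells, cells rich in ER, summed to 18.1 to 28.7 CPM in mutants against 20.95 to 28.4 CPM in wild types. A sum is led by the most abundant markers. The mean log2 level of the 10, relative to wild types, was 0.30 to 0.59 in mutants against -0.18 to 0.11 in wild types. Of 4 tested genes, 1 was called in each direction, with log2 fold changes from -0.64 to 4.20. Of the 10, 0 were at a count of 0 in all libraries. The part of these marker differences in the values of Herpud1, Hspa5 and Calr was not tested.

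In cerebrum at P42, 11 of 11 thalamus and hypothalamus markers had higher values, at 564 to 1038 CPM in mutants against 100 to 311 CPM in wild types, and 9 of 9 myeloid markers lower ones, at 113 to 134 CPM in mutants against 149 to 166 CPM in wild types. Oligodendrocyte markers had higher values for 7 of 8 genes, 6 with an unadjusted p under 0.05, against 12.6% of all genes in either direction. They summed to 8100 to 11906 CPM in mutants and 5908 to 8545 CPM in wild types. Cortical excitatory neuron markers had lower values for 8 of 8, 0 with an unadjusted p under 0.05, at 801 to 4110 CPM in mutants and 2958 to 4956 CPM in wild types. Choroid plexus markers had lower values for 9 of 10 in cerebrum (median -1.11), 6 with an unadjusted p under 0.05. They summed to 389 to 877 CPM in mutants and 692 to 2115 CPM in wild types. Erythroid markers had lower values for 3 of 3 tested in cerebrum and 5 of 5 in cerebellum. By edgeR 0 markers of any of these lists were called at P42. With the thalamus and hypothalamus level as a covariate Herpud1 had 0.71 ± 0.16 and Hspa5 -0.57 ± 0.21, neither called by edgeR (adjusted p = 0.751 and 0.822). Without mutant libraries 3 and 4, Herpud1 had 0.62 ± 0.13 (adjusted p = 0.961). In cerebellum 10 of 10 choroid plexus markers had lower values, at 143 to 1814 CPM in mutants against 2376 to 3627 CPM in wild types. With their level as a covariate 4 of the 10 ER genes, not 7, had negative values. Hspa5 was then at 0.01 ± 0.14 and Herpud1 at 0.29 ± 0.14 (adjusted p = 0.976 and 0.316 by edgeR). For both covariates the marker levels of mutants and wild types did not overlap. The fits with a covariate therefore cannot tell marker level apart from genotype, and no conclusion is drawn from them.

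Within groups the 10 genes did not vary as a block. Over the 45 pairs of the 10 genes, Pearson's r of their log2 deviations from the group mean over the 24 libraries had a median of 0.18 and ran from -0.77 to 0.71, with 26 pairs positive. Creld2 (r = 0.69), Calr (0.63), Pdia4 (0.62) and Hsp90b1 (0.61) ran with Hspa5. Without the 2 libraries farthest from the median of Hspa5, mutant library 1 of cerebrum P42 and mutant library 1 of cerebellum P42, these values were 0.57, 0.57, 0.52 and 0.53, so no order among the 4 genes is read from them. Within cerebrum P75 alone Hsp90b1 was at -0.43. Atf6 ran against Hspa5, at -0.77 with all libraries and -0.64 without those 2. Herpud1 was at -0.45 with all libraries, -0.18 without those 2 and 0.22 within cerebrum P75, so its negative value rested on P42 libraries. Among the 12387 genes ranked, Vat1l (0.85), Rtl5 (0.84), Adcy7 (0.84), Rab9b (0.83), She (0.82), Zc3h15 (0.82), Sfrp5 (0.82) and Fads2 (0.81) had the highest r with Hspa5 over the 24 libraries. Without the 2 farthest libraries the 8 ranged from 0.64 (Zc3h15) to 0.79 (Vat1l). Within cerebrum P75 they ranged from -0.12 (Rab9b) to 0.75 (Rtl5), so the likeness rested in part on the P42 libraries. These correlations describe libraries that also share depth and tissue composition, and no test was made.

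**Figure D5:**
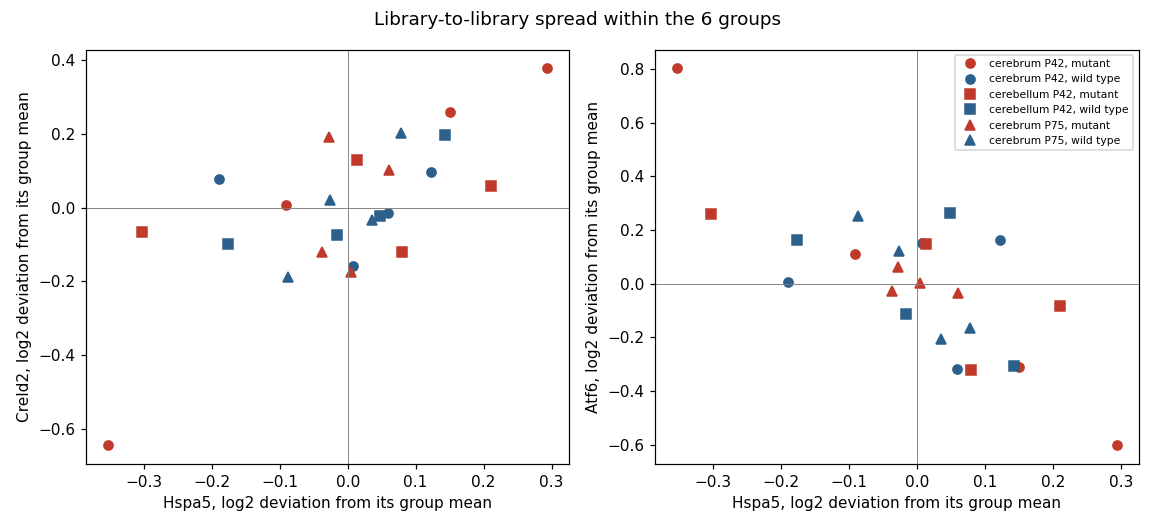
Log2 deviation from the group mean of Creld2 (left) and Atf6 (right) against that of Hspa5 (horizontal axes), 1 point per library, with shape for tissue and age and colour for genotype. Creld2 runs with Hspa5 (r = 0.69) and Atf6 against it (r = -0.77), with 0.57 and -0.64 without the 2 libraries farthest from the median of Hspa5, and mutant library 1 of cerebrum P42 lies at the far left of both panels.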

How the data were processed

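The authors' deposited gene tables hold read counts per gene, whole numbers with no scaling, in 1 table for P42 and 1 for P75. Per the submitters' processing notes, HISAT2, DESeq2 and the genome build mm10 were used; for the read counter and the annotation release, a name is not given in the sources used here. Libraries were polyA-enriched, per the labels' protocols. The authors' deposited tables of each comparison hold, per the file headers, a mean normalized signal, a log2 fold change with its standard error, a test score and p-values, and were used only where named.

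From the counts, edgeR 4.0.16 in R 4.3.3 (limma 3.58.1 installed) fitted each comparison on its own libraries: filterByExpr by genotype, TMM scaling, a two-sided quasi-likelihood F test, and sex as a term in the P42 fits. Interactions used 16 libraries each. P42 and P75 levels come from separate tables and were not compared. Total counts per library, in units of 1000000, ran from 13.8 to 23.2, and those of Sdf2l1, the sparsest of the 10 genes, from 67 to 284 counts. As the labels do not say that libraries came from separate mice, p-values measure the spread between libraries, which may be technical. Alternatives were DESeq2 1.42.0, RLE or library-size scaling, other filters (none, or 1 CPM in 4 libraries), an adjusted p under 0.01, no sex term, a replicate block, marker covariates, males only and leaving out libraries. No pair of libraries within a group was a duplicate, and pairs across groups were not checked. The scripts were tested on simulated data with known changes.

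The 10 genes and all lists were chosen with earlier results of these data known. The text names the 10 genes, up to 4 genes with the smallest p of each list and comparison together with genes singled out by role after their values were seen (Syvn1, Sel1l, Herpud2, Atf4, Ern1, Hsp90ab1, Hspd1 and Cryab), and the 8 genes with the highest correlation with Hspa5 among those with at least 5 CPM. Log2 levels used a prior count of 0.5. Promoter sequences are from RefSeq on GRCm38.p6, and overlapping genes from GENCODE on the same build.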

Additional observations from a re-analysis of the deposited data

How the results depend on the processing

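No result changed direction while called. In cerebrum P42, 1 of the 10 genes was called instead of 0 by DESeq2 and 1 without the filter on low counts, Herpud1 in both. In cerebrum P75, 1 of 10 instead of 3 passed an adjusted p under 0.01 (Herpud1), and leaving out 1 library gave 1 to 4, with Herpud1 in each. In wild type tissues, 0 instead of 2 passed an adjusted p under 0.01, 1 passed without the filter, 3 passed with scaling by library totals alone (Sdf2l1 in addition), and leaving out 1 library gave 0 to 2. For the difference between ages, leaving out 1 library gave 0 to 1 (Atf6, without mutant library 1 of cerebrum P42). For the other comparisons every setting run gave 0. The cause of these changes was not tested, other than that fewer samples entered when a library was left out.

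With the replicate number as a block, 4 of 10 were called in cerebrum P75 (Xbp1 in addition) and 0 in each P42 comparison. Same-numbered libraries did not deviate together throughout (correlations 0.01 to 0.28 in cerebrum P42, -0.40 to 0.08 in cerebellum P42 and 0.04 to 0.19 in cerebrum P75), so the numbers were not treated as pairs.

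Limits: a missed threshold does not show equal levels. Gene counts measure neither Xbp1 splicing, ATF6 cleavage nor protein. Levels of cell type and region markers differed between the genotypes at P42 in several lists, with 0 of these genes called by edgeR. In cerebrum at P75, 8 of 9 myeloid and 4 of 7 endothelial markers were called higher. There 7 of 8 cortical excitatory neuron markers were called lower, against 7.66% of all genes called higher and 6.62% lower.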
